A study of Homo sapiens with 16 samples.

Results

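The NDUF genes encode most of respiratory complex I and the factors that assemble it. They were taken as the protein-coding RefSeq genes of GRCh38 on chromosomes 1 to 22 and X whose symbol starts with NDUF, and 45 of the 19674 genes whose strand was known are described here. The 45 genes comprised 6 core subunits, 30 accessory subunits, 8 assembly factors (NDUFAF1 to NDUFAF8) and the readthrough gene NDUFC2-KCTD14. The readthrough gene shares the start of NDUFC2 and therefore has the same values throughout, so the 45 genes stand for 44 start sites. NDUFA4 and NDUFA4L2 are not in the gene table used here.

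The data were H3K27ac ChIP-seq peak lists from K562 cells, an established human erythroleukaemia cell line, made to ask how the ratio of antibody to chromatin changes a ChIP result. In the fixed arm, every reaction held 0.25 µg of antibody against H3K27ac, while the chromatin, measured as its DNA (DNAchrom), doubled over 7 amounts from 0.31 to 20 µg, so that the antibody titer, relative to the optimum set as 1, was 32, 16, 8, 4, 2, 1 and 0.5. In the normalized arm, the antibody was scaled to titer 1 at the same 7 amounts. Each condition was 1 library named by its amount and titer (0.31-T32 to 20-T0.5 and 0.31-T1 to 20-T1), and 10-T1a and 10-T1b had the same amount and titer. Apart from this pair, which lies across the arms, no libraries shared both amount and titer, and the labels name no replicates. By the names of the deposited peaks, each arm was called against an input of its own, so the arms cannot be told apart from their inputs, and within the fixed arm titer and chromatin amount cannot be told apart. The fold enrichment of a gene is the authors' value for the strongest peak, at a q-value of 1% or less, that overlaps 5 kb on either side of its TSS, taken as the 5′ end of the RefSeq gene. Of the K562 marker genes, all 11 had such a peak in all 14 lists, and of 11 marker genes of other cell types 9 had a peak in no list. CD3D and APOA2 had one in all 14. The lists held between 64083 and 82143 peaks at that q-value. Read depth was not analysed here.

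Complex I oxidises NADH in the mitochondrial matrix, passes the electrons through a flavin and a chain of iron-sulfur clusters to ubiquinone, and pumps protons across the inner membrane. Its catalytic core consists of nuclear-encoded subunits in the matrix arm and mitochondrially encoded subunits in the membrane arm, while accessory subunits surround the core and assembly factors leave the finished enzyme. The nuclear genes are expressed in nearly all cell types, and NRF1, GABPA (an ETS factor) and YY1 are known regulators of genes of oxidative phosphorylation. H3K27ac is a mark of active promoters and enhancers.

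The promoters of the 3 genes whose reference sequence held motifs of more than 1 of these factors are shown first, from 250 bases before to 30 bases after the start (RefSeq, GRCh38.p14, 5′ to 3′ on the strand of the gene). Capitals mark GCATGCGC (NRF1), CCGGAAG (ETS) or AAGATGGCG (YY1) on either strand. The core subunit gene NDUFS7 (chr19:1383657-1383936, plus strand) had the NRF1 letters before the start and the YY1 letters after it. The assembly factor gene NDUFAF4 (chr6:96897862-96898141, minus strand) had the ETS and the NRF1 letters. The accessory subunit gene NDUFA6 (chr22:42090743-42091022, minus strand) had the NRF1 letters, and its YY1 match runs past the end of the stretch shown.
NDUFS7: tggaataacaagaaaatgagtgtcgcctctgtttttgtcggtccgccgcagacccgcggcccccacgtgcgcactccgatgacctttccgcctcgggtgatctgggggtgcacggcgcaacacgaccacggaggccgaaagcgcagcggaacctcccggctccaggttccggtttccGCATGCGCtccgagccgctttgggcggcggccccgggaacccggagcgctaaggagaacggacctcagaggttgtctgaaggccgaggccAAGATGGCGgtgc
NDUFAF4: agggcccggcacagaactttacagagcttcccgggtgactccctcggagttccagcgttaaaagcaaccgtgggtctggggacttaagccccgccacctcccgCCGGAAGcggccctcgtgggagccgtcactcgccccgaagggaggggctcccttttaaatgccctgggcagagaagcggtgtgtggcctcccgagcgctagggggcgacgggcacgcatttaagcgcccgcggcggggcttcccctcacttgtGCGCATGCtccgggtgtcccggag
NDUFA6: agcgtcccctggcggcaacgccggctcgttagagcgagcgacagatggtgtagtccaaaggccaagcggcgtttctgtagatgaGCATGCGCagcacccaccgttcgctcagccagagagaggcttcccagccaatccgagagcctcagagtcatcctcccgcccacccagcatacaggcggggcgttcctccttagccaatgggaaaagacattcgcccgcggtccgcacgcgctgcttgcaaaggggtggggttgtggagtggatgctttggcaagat

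Among the 40 NDUF genes in the promoter table, the NRF1 letters were found in the 300 bases around the start of 7 (17.5%), against 4.26% of all 15813 coding promoters of the same length. The YY1 letters were found in 5 (12.5%, against 2.74%) and the ETS letters in 6 (15%, against 14.2%). With the longer ETS form CCGGAAGT, which contains the shorter one, the count was 2 (5%, against 6.2%). GGGGCGGGG, a box of the SP and KLF factors, was found in 6 (15%, against 22.4%), CCAAT in 11 (27.5%, against 36.3%) and TATAAA in 3 (7.5%, against 9.64%). Any of the NRF1, ETS or YY1 letters stood in 15 of the 40 (37.5%, against 19.4%). A match is a stretch of letters and not a bound site, and its absence says only that these letters are not in this window. The promoters of the NDUF genes had a median of 23.5 CG dinucleotides, and all coding promoters had 22.

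The first question was whether the NDUF promoters carried H3K27ac under every condition. A peak was found in all 14 lists for 43 of 45 NDUF genes (95.6%), against 10188 of 19674 coding genes (51.8%). The 43 included all 6 core subunits, 28 of 30 accessory subunits and all 8 assembly factors. The 2 exceptions were NDUFA12 and NDUFA5, both accessory subunits of the matrix arm. Even at titer 32, where the fewest coding genes had a peak (56.7%), 43 NDUF genes had one, and in each of the other 13 lists 44 did.

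**Figure D1:**
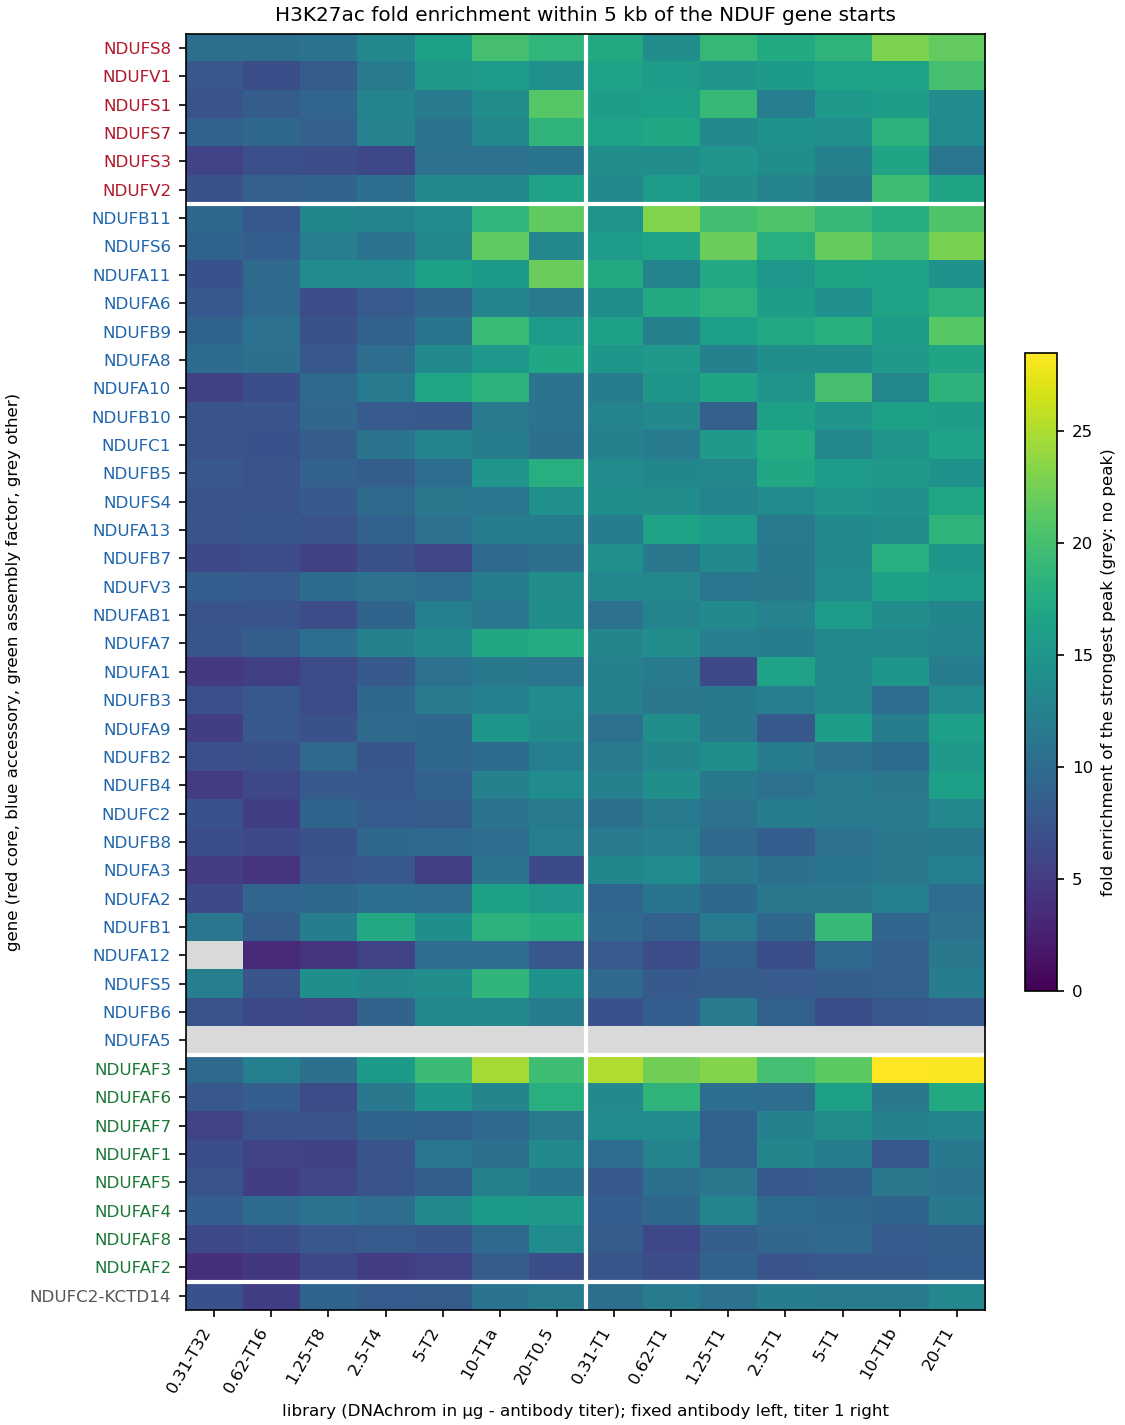
Fold enrichment of the strongest H3K27ac peak within 5 kb of the start of each NDUF gene (rows, grouped as core subunits, accessory subunits, assembly factors and the readthrough gene, and within each group in order of the normalized median) in each of the 14 lists (columns, fixed antibody on the left and titer 1 on the right); grey cells have no peak. The colours brighten from left to right across the fixed columns, while no such gradient is seen across the normalized columns, and the NDUFA5 row is grey throughout.

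NDUFA12 lies on the minus strand of chromosome 12 with its start at position 95003697. It had a peak in 13 lists, and in 0.31-T32 only a weaker deposited peak (fold enrichment 3.02, −log10 q of 1.301) that missed the q-value used. Its fold enrichment was 3.54, 4.38, 5.89, 10.1, 10.2 and 7.72 at titers 16, 8, 4, 2, 1 and 0.5. In the normalized lists it had a lowest, median and highest value of 6.75, 8.74 and 11.4, so all 7 of them lay above the 4 fixed lists of titer 4 or more. The covered length in its window, the number of bases within 5 kb of the start that lie in peaks, fell by 170.4 bp ± 28.1 (SE) per doubling of titer (limma, adjusted p = 0.00646). NDUFA12 was left out of the tests of fold enrichment, which need a value in every list.

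NDUFA5 was the only NDUF gene with no peak in any list. The RefSeq gene begins at position 123601651 of chromosome 7 (minus strand), and the promoter table lists another start 43833 bp further along the gene, at position 123557818, which had a peak within 5 kb in all 14 lists. The promoters at both starts are shown, since the presence of a peak depends on which start is taken. The first has 3 CG dinucleotides and 41.1% G and C in the 280 bases, and the second has 15 and 54.3% and holds the NRF1 letters. Printed after them is the promoter of NDUFA12 (chr12:95003668-95003947), which has 18 CG dinucleotides and none of the NRF1, ETS or YY1 letters.
NDUFA5, first start, chr7:123601622-123601901, minus strand: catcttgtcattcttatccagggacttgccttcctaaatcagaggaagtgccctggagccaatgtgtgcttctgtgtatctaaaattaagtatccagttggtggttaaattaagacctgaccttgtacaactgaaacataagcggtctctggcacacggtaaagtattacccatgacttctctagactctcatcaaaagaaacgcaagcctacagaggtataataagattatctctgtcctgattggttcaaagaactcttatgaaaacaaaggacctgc
NDUFA5, other start, chr7:123557789-123558068, minus strand: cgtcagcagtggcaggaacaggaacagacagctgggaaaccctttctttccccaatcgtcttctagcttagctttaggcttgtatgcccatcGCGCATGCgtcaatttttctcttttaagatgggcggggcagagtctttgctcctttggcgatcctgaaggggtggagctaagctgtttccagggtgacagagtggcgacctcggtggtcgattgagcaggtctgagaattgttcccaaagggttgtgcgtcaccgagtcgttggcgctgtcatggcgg
NDUFA12, minus strand: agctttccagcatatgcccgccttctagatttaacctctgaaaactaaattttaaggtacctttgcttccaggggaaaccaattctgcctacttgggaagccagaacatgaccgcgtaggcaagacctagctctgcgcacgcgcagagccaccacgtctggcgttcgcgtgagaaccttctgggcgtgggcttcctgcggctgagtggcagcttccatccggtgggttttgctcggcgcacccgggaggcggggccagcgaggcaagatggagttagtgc

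At this other start of NDUFA5 the fold enrichment in the fixed arm was 8.50, 6.44, 10.3, 13.01, 19.5, 18.5 and 14.3 from titer 32 to titer 0.5. In the normalized arm it was 12.8, 16.5, 20.4, 14.5, 14.5, 19.7 and 15.8 from 0.31 to 20 µg. The 2 lowest of the 14 values were those of titer 16 and titer 32. The summit lay 123 to 314 bp downstream of this start. These values were not part of the tests below, which use the RefSeq 5′ end of each gene.

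Among the 43 genes with a peak in every list, fold enrichment ranged from 3.85 to 28.5. NDUFAF3, which acts with NDUFAF4 in building the ubiquinone-binding part of the enzyme, was the highest of them in 7 lists and stood at a median percentile of 99.7 among the peaks of a list. Its fold enrichment in the fixed arm had a lowest, median and highest value of 9.70, 15.5 and 24.7, and in the normalized arm of 20.004, 23.2 and 28.5. The arms overlapped only through the 10-T1a value, the highest of the fixed arm. NDUFAF2, a relative of NDUFA12 that takes its place during assembly, was the lowest in 4 lists, with 3.85, 5.77 and 8.37 in the fixed arm, 6.76, 7.95 and 9.12 in the normalized arm and a median percentile of 76.6. NDUFB6, an accessory subunit of the membrane arm, was also lowest in 4 lists, all of them normalized. The median percentile was over 90 for 27 of the 43 (62.8%), beside 56.7% of all genes with a peak in every list.

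The core subunits of the matrix arm carry the flavin and the iron-sulfur clusters. NDUFS8, an iron-sulfur subunit, was the highest of the 6, with a lowest, median and highest fold enrichment of 10.5, 13.3 and 20.1 in the fixed arm and 13.98, 18.6 and 22.9 in the normalized arm. NDUFV1, which binds NADH and the flavin, had 6.87, 11.6 and 15.7 and 14.9, 16.5 and 20.1. NDUFV2, its iron-sulfur neighbour, had 7.06, 10.4 and 16.4 and 11.5, 13.9 and 19.6. In each of these 3 the normalized median was above the fixed median, and the 2 ranges overlapped. NDUFS1, the largest subunit of the matrix arm, had 7.26, 11.7 and 21.0 in the fixed and 12.1, 15.8 and 19.1 in the normalized arm. NDUFS7, which carries the last iron-sulfur cluster before ubiquinone, had 8.78, 10.9 and 18.5 and 13.4, 14.7 and 18.4. NDUFS3 had 5.83, 7.01 and 11.0 and 11.2, 14.1 and 16.6, and was the only core subunit whose normalized values all lay above its fixed values.

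The accessory subunits spanned nearly the whole range of the NDUF genes. The highest normalized medians among them were those of NDUFB11 of the membrane arm, an X-linked gene, and NDUFS6, a zinc-binding subunit of the matrix arm. NDUFB11 had a lowest, median and highest fold enrichment of 7.795, 13.1 and 21.5 in the fixed and 14.7, 19.8 and 23.1 in the normalized arm, and NDUFS6 had 8.53, 12.2 and 21.6 and 15.6, 19.7 and 22.7. NDUFA11, of the membrane arm, had 7.18, 13.9 and 22.03 and 12.9, 16.5 and 17.3, and its 20-T0.5 value was the highest of all NDUF genes in that list. In NDUFB11 and NDUFS6 the highest fixed value, at titer 1 or 0.5, reached into the normalized range. In NDUFA11 it lay above that range, and the fixed values of titer 8, 4, 2 and 1 lay within it.

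Other accessory subunits of the matrix arm had middling values. NDUFS4, a subunit of the NADH-oxidising module, had 7.35, 9.85 and 14.3 in the fixed and 12.9, 14.2 and 16.9 in the normalized arm. NDUFV3 had 8.26, 10.3 and 14.03 and 11.2, 13.2 and 16.3, and NDUFAB1, the mitochondrial acyl carrier protein, had 6.70, 9.18 and 14.2 and 10.7, 13.02 and 15.8. NDUFA13, also known as GRIM19, a subunit joining matrix and membrane arms, had 7.38, 8.86 and 12.05 and 11.8, 13.96 and 18.6. All 4 had a normalized median above the fixed median. NDUFA2, a small subunit with a thioredoxin-like fold, had 6.32, 10.3 and 16.2 and 9.29, 11.1 and 12.3, so that its highest value was a fixed one. NDUFA7 behaved likewise, with 7.62, 12.4 and 17.5 and 12.1, 12.9 and 13.9. At the low end of the normalized arm stood NDUFB6, with 6.02, 9.11 and 13.4 and 6.83, 8.22 and 11.6, and NDUFS5, with 7.37, 13.97 and 18.6 and 8.06, 8.60 and 11.98.

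The position of the strongest peak differed between the NDUF genes. Taken as the median over the 14 lists, its summit lay within 1 kb of the TSS for 40 of 43 NDUF genes (93%) and 81.8% of all genes with a peak in every list. It lay downstream of the TSS for 33 NDUF genes (76.7%), against 66.1% of all genes, and upstream for 10. For 25 NDUF genes it was found on both sides of the TSS in different lists, and the same count over all genes is not given here. NDUFAF3 had its summit at a median of 1393 bp downstream of its RefSeq 5′ end. The start of its MANE Select transcript, the transcript chosen as representative in GENCODE, lies 1662 bp downstream of its first start in GENCODE. That first start need not be the RefSeq 5′ end, so the summit is not placed relative to the MANE Select start. Of 43 NDUF genes with a MANE Select start, 7 had it more than 1 kb from their first GENCODE start. NDUFB10, an accessory subunit on the intermembrane side, had the summit of its strongest peak from -645 bp, which is upstream, to 4944 bp downstream. The nearest other coding start, that of RPL3L, lies 4849 bp away. NDUFC1 had a median of 1100 bp downstream, and the start of NAA15 lies 1046 bp away. Both distances between starts were taken without regard to side, so neither places the neighbouring start at the summit.

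**Figure D2:**
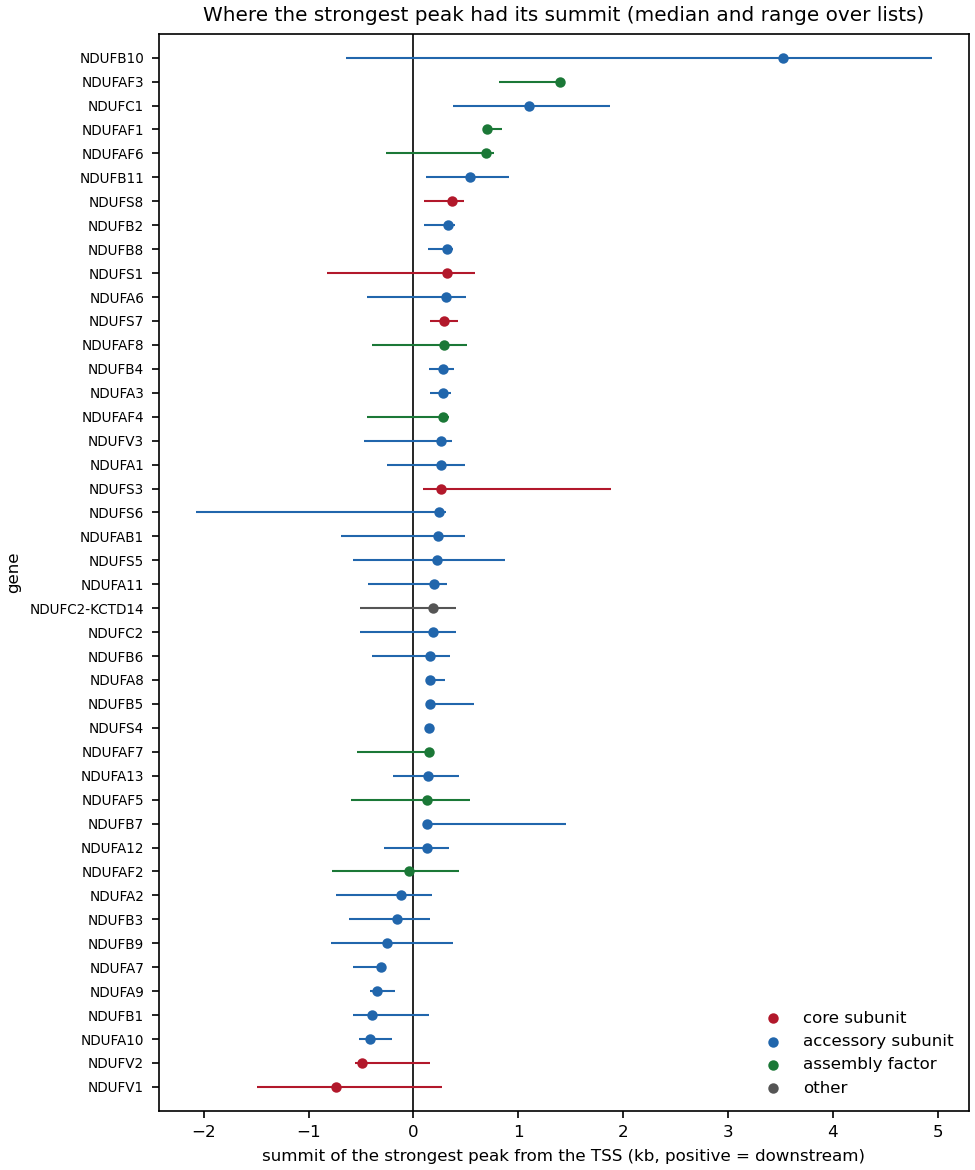
Distance in kb from the TSS of each NDUF gene (rows) to the summit of its strongest peak, as the median (point) and the range (line) over the lists with a peak, coloured by role, with positive values downstream. NDUFB10 stands apart at a median of 3526 bp, and 40 of the 43 genes with a peak in every list have a median within 1 kb.

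Many NDUF genes share their promoter region with another gene. Another coding gene on the opposite strand started within 1 kb of 21 of 45 (46.7%), against 13.4% of all coding genes. The closest 8 pairs were NDUFS6 with MRPL36 at 27 bp, NDUFB9 with TATDN1 at 35 bp, NDUFAF7 with CEBPZ at 62 bp, NDUFA9 with AKAP3 at 63 bp, NDUFA1 with RNF113A at 99 bp, NDUFS3 with KBTBD4 at 104 bp, NDUFAF5 with ESF1 at 109 bp and NDUFA7 with RPS28 at 121 bp. In such pairs the peak cannot be assigned to 1 of the genes. Over all coding genes, 85.7% of those with such a neighbour and 46.6% of those without had a peak in all 14 lists. Of the 24 NDUF genes without such a neighbour, 22 had one.

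The next question was how fold enrichment at the NDUF genes followed the antibody titer when the antibody was fixed. Fold enrichment was lower at higher titer for nearly all of them. The median over the 43 genes was 7.35, 7.37, 8.40, 9.64, 11.0, 12.7 and 13.9 at titers 32, 16, 8, 4, 2, 1 and 0.5. All 43 were lower in 0.31-T32 than in 10-T1a, with a median ratio of 0.559 and a range from 0.299 for NDUFA10 to 0.706 for NDUFV3. All genes tested had a similar fall, with a median fold enrichment of 7.06 in 0.31-T32 and 12.9 in 10-T1a. In a linear fit of log2 fold enrichment on log2 titer across all 10188 genes with a peak in every list (limma, Benjamini-Hochberg adjusted over all of them, threshold 0.05), 42 of 43 NDUF genes fell with titer and 0 rose, beside 86.2% of all genes tested that fell. The median slope was a change of -0.17 in log2 fold enrichment per doubling of titer, both for the NDUF genes (-10.9%) and for all genes tested (-10.8%). The fall of the NDUF genes was thus that of the genes tested as a whole. After the median of all genes was subtracted from each list, the fit called 0 of the 43 in either direction, and 0 when each value was replaced by its percentile in its list. The count was 27 without both 0.31-T32 and 20-T0.5, a setting chosen after seeing the data, and the share of all genes under it is not given here.

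**Figure D3:**
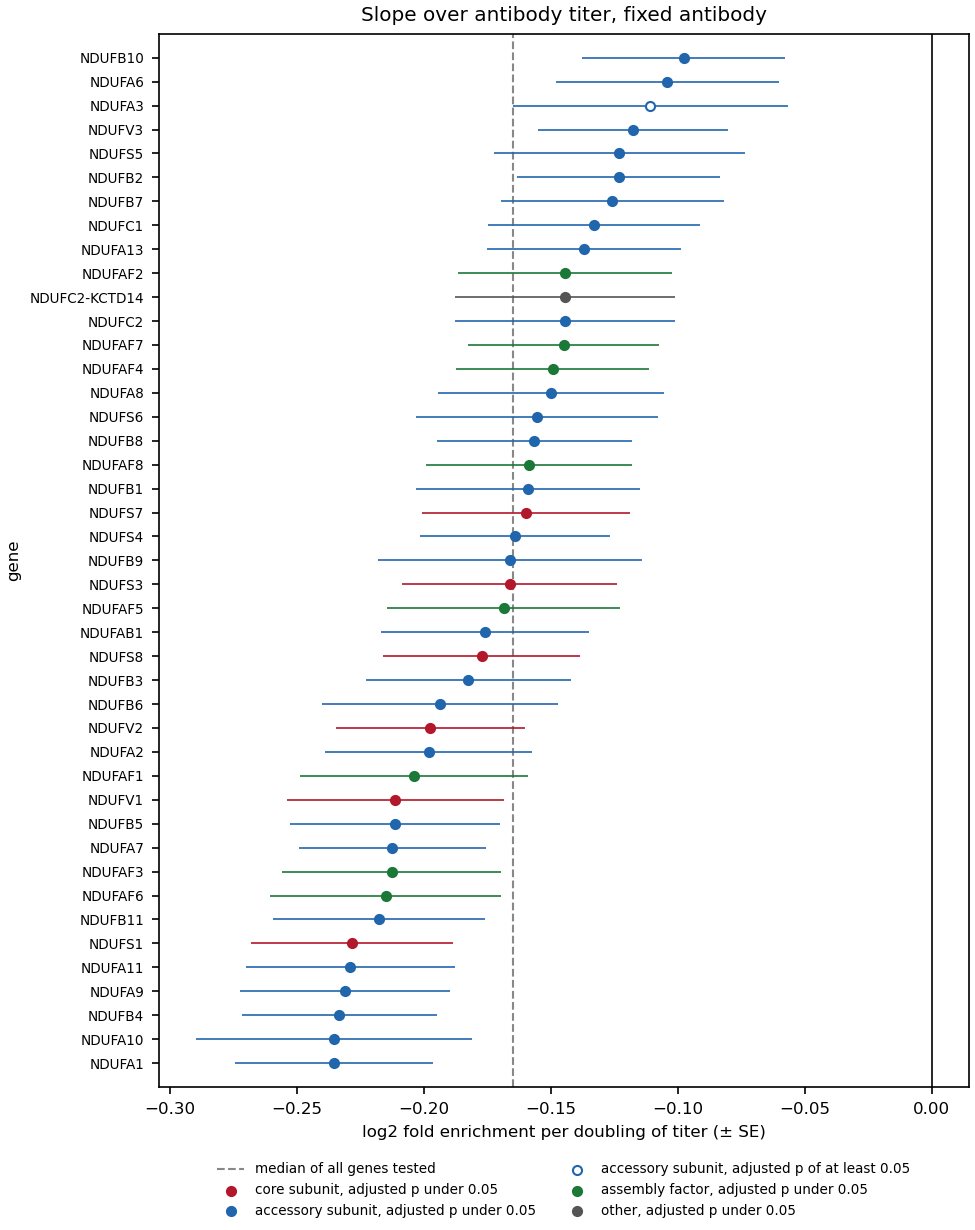
Slope of log2 fold enrichment per doubling of antibody titer in the 7 libraries of the fixed arm (horizontal axis, point with SE) for each NDUF gene (rows, coloured by role), with filled points for an adjusted p under 0.05. All 43 slopes lie below 0, from -0.24 to -0.10, on both sides of the dashed median of all genes tested at -0.17.

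The steepest slopes were those of NDUFA1, NDUFA10 and NDUFB4, accessory subunits of the membrane arm. NDUFA1 read 4.78, 5.36, 6.57, 8.04, 10.7, 11.5 and 11.2 from titer 32 to titer 0.5, and fell by 15.1% per doubling of titer (slope -0.24 ± 0.04 SE, limma adjusted p = 1.72e-04). Its values climbed at each step from titer 32 to titer 1. NDUFA10 fell by 15.1% per doubling (adjusted p = 0.00105) and NDUFB4 by 14.9% (adjusted p = 1.67e-04), both by limma. The shallowest slopes were those of NDUFB10, NDUFA6 and NDUFA3. NDUFB10 fell by 6.55% (adjusted p = 0.0298) and NDUFA6 fell by 6.97% (adjusted p = 0.0345), both by limma. NDUFA3 had a slope of -0.11 ± 0.05 (SE, limma adjusted p = 0.0637) and was the 1 gene not called. The calls of NDUFA6 and NDUFB10 were lost when single libraries were left out, that of NDUFA6 without the library of titer 32, 8, 1 or 0.5 (adjusted p from 0.0577 to 0.127) and that of NDUFB10 without the library of titer 32, 16, 1 or 0.5 (0.0607 to 0.107), all by limma. NDUFA3 was called without the library of titer 8, 2 or 0.5 (limma adjusted p from 0.0218 to 0.0451). NDUFB10 was also the gene whose strongest peak lay furthest from the start, and its call was lost within 1 kb (limma adjusted p = 0.0658).

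By role, 6 of 6 core subunits, 27 of 28 accessory subunits and 8 of 8 assembly factors fell with titer. Among the core subunits the change per doubling was -14.6% for NDUFS1, -13.6% for NDUFV1, -12.8% for NDUFV2, -11.6% for NDUFS8, -10.9% for NDUFS3 and -10.5% for NDUFS7. Among the assembly factors it ran from -13.8% for NDUFAF6 to -9.52% for NDUFAF2, with NDUFAF3 at -13.7%, NDUFAF1, a member of the membrane arm assembly complex, at -13.2%, NDUFAF5, which hydroxylates NDUFS7, at -11.0%, its partner NDUFAF8 at -10.4%, NDUFAF4 at -9.83% and NDUFAF7, a protein methyltransferase, at -9.56%. The NDUFAF6 value belongs to the peak near its RefSeq 5′ end, which lies 894 bp from the start of CCNE2 on the opposite strand. In GENCODE the MANE Select start of NDUFAF6 lies 129456 bp from its first listed start, and peaks at that MANE Select start were not examined. The median change of the 21 NDUF genes with an opposite-strand neighbour was -10.9% and that of the 22 without one -10.6%.

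The other complexes of oxidative phosphorylation gave counts of the same kind. With titer, 7 of 8 tested genes of complex II fell, 9 of 9 of complex III, 9 of 9 of complex IV, 15 of 16 of ATP synthase and 13 of 15 complex I assembly factors without the NDUF prefix. None of these genes rose. These counts stand beside 86.2% of all genes tested that fell. The median slopes of the 5 lists were -0.18, -0.20, -0.14, -0.19 and -0.17 in that order, beside -0.17 for all genes tested. Of the listed genes, TMEM177 had a peak in 12 lists, ATP5MC2 in 1 and COX7A2 in none. Of 9 regulators, among them NRF1, GABPA, ESRRA and TFAM, 8 had a peak in all 14 lists and PPARGC1A had none. With titer, 8 of 8 fell, beside the same 86.2% of all genes tested.

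With the antibody normalized to titer 1, fold enrichment at the NDUF genes did not move detectably with the chromatin amount. The median over the 43 genes was 12.7, 13.2, 12.4, 12.2, 13.6, 13.96 and 14.5 from 0.31 to 20 µg of DNAchrom. The fit on log2 DNAchrom (limma) called 0 of 43 NDUF genes higher and 0 lower, beside 0.0491% of all genes tested that were called higher. At an unadjusted p under 0.05 there was 1 of 43, beside 12.5% of all genes tested, and the exact permutation test over all pairings, adjusted over all genes, also called 0. This was the core subunit NDUFS8, with a slope of 0.08 ± 0.04 (SE) per doubling of DNAchrom (limma, unadjusted p = 0.0433, adjusted p = 0.388). The 43 slopes ran from -0.03 for NDUFS1 to 0.08 for NDUFS8, with NDUFA3 and NDUFS3 next at the low end (both -0.03) and NDUFB10 and NDUFS6 next at the high end (both 0.08), with a median of 0.04, the same to this precision as that of all genes tested. The SD of log2 fold enrichment over the 7 libraries had a median of 0.42 over the NDUF genes in the fixed arm and of 0.21 in the normalized arm. Over all genes tested these medians were 0.42 and 0.23.

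**Figure D4:**
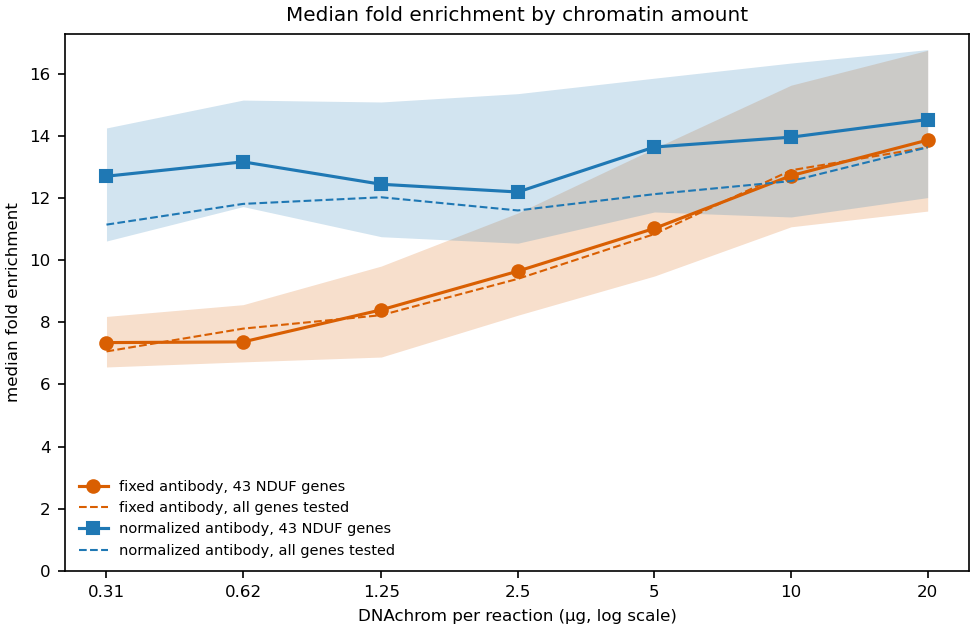
Median fold enrichment of the 43 NDUF genes with a peak in every list (solid lines; the bands span the interquartile range of the genes) and of all 10188 genes tested (dashed lines) against the DNAchrom of the reaction in µg, on a log scale, in the fixed and the normalized arm. The solid fixed line climbs from 7.35 to 13.9, while the normalized one stays between 12.2 and 14.5.

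The difference between the arms in their slope on DNAchrom was tested directly. The slope was lower in the normalized arm for 18 of 43 NDUF genes and higher for 0 (limma interaction term, adjusted p under 0.05), beside 36.6% and 0.118% of all genes tested. The 18 were 5 of 6 core subunits, 9 of 28 accessory subunits and 4 of 8 assembly factors. The differences furthest below 0 were those of NDUFS1 (-0.26 ± 0.06 SE, adjusted p = 0.00439), NDUFA11 of the membrane arm (-0.23 ± 0.06, adjusted p = 0.00695) and NDUFAF1 (-0.22 ± 0.07, adjusted p = 0.0181), all by limma. The call of NDUFAF1 was lost without 20-T0.5 (adjusted p = 0.0642). NDUFS1 climbed from 7.26 in 0.31-T32 to 21.0 in 20-T0.5 with fixed antibody, and read 15.9 in 0.31-T1 and 13.8 in 20-T1. At the other end, NDUFB10 had a difference of -0.02, NDUFV3, an accessory subunit of the matrix arm, of -0.06 and NDUFB7 of -0.07, none of them called. The count was 11 of 43 without 20-T0.5 and 9 without 0.31-T1, and after the median of all genes was subtracted from each list it was 0. The shares of all genes without these libraries are not given here.

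The last question was whether normalizing the antibody raised fold enrichment at the same amount of chromatin. The ratio of the normalized to the fixed library had a median over the 43 NDUF genes of 1.73, 1.80, 1.54, 1.34, 1.28 and 1.08 at the 6 amounts where the fixed titer was 32, 16, 8, 4, 2 and 0.5. At 10 µg, where both libraries had titer 1, it was 1.05. The normalized library was the higher one for 39, 41, 38, 34, 38 and 24 of the 43 genes at the 6 amounts in that order. At 10 µg it was the higher one for 24. Beside these counts, it was higher for 89.7%, 88.7%, 87.2%, 74.3%, 65.4% and 49.3% of all genes tested, and for 46.3% at 10 µg. The median ratio of all genes tested was 1.55, 1.503, 1.44, 1.23, 1.12 and 0.994, and 0.972 at 10 µg. The excess of the normalized arm was thus seen where the fixed titer was above 1, and it shrank towards titer 1.

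Over the 6 amounts other than 10 µg, with the amount as a block, 31 of 43 NDUF genes were higher in the normalized arm and 1 was lower (limma, adjusted p under 0.05), beside 45.4% and 1.34% of all genes tested. The median difference was 0.52 in log2 fold enrichment for the NDUF genes and 0.36 for all genes tested. All 6 core subunits were higher, as were 19 of 28 accessory subunits and 5 of 8 assembly factors. In this fit limma drew the spread of nearly every gene to a common value, so that the SE of each NDUF gene was close to 0.18. With the spread of each gene alone, 14 of 43 were called higher, beside 21.2% of all genes, and none lower, beside 0.579%. After the median of all genes was subtracted from each list, 5 NDUF genes stood higher (NDUFA3, NDUFB7, NDUFA6, NDUFS3 and NDUFS6, beside 10.8% of all genes) and 3 lower (NDUFS5, NDUFB1 and NDUFAF4, beside 12.8%). Without 0.62-T16, or without 0.62-T1, the count of higher genes was 20, and the shares of all genes in these fits are not given here. For 18 NDUF genes all 7 normalized values lay above all 5 fixed values of titer over 1, beside 25.2% of all genes tested.

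The largest differences were those of NDUFA3, NDUFB7 and NDUFA6, all accessory subunits. NDUFA3, of the membrane arm, read 5.21, 4.33, 7.497, 7.81, 5.40, 10.9 and 6.43 in the fixed arm from 0.31 to 20 µg, and 13.1, 13.8, 11.3, 10.5, 11.1, 11.4 and 12.3 in the normalized arm. Only 10-T1a among the fixed values reached the normalized range. Its difference was 1.00 ± 0.18 (SE, limma adjusted p = 7.29e-07). NDUFB7, of the intermembrane side, had a lowest, median and highest value of 5.54, 6.60 and 10.6 in the fixed and 11.4, 13.7 and 17.9 in the normalized arm, and a difference of 0.95 ± 0.18 (limma adjusted p = 2.75e-06). NDUFA6, a matrix arm subunit that binds the acyl carrier protein NDUFAB1, had 6.71, 9.41 and 12.7 and 14.2, 16.4 and 18.3, and a difference of 0.89 ± 0.18 (limma adjusted p = 1.02e-05). The fixed and normalized ranges of NDUFB7 and of NDUFA6 did not overlap. At 10 µg, with the titer equal, 10-T1b was 1.05-fold of 10-T1a for NDUFA3, 1.84-fold for NDUFB7 and 1.29-fold for NDUFA6.

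Among the core subunits the difference was 0.81 for NDUFS3 (limma adjusted p = 6.20e-05), 0.69 for NDUFV1, 0.47 for NDUFS1, 0.46 for NDUFS8, 0.42 for NDUFS7 and 0.41 for NDUFV2, each ± 0.18 (SE). Among the assembly factors, NDUFAF3 had 0.73, NDUFAF7 0.62, NDUFAF2 0.57, NDUFAF1 0.51 and NDUFAF6 0.41, all called. NDUFAF5 had 0.35, NDUFAF8 0.05 and NDUFAF4 -0.13, none of them called. As with the slope, the value of NDUFAF6 belongs to the peak near its RefSeq 5′ end.

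At the other end stood NDUFS5, NDUFB1 and NDUFAF4. NDUFS5, an accessory subunit on the intermembrane side, read 12.2, 7.37, 14.2, 13.4, 13.97, 18.6 and 14.7 in the fixed arm from 0.31 to 20 µg, and 9.78, 8.06, 8.35, 8.15, 8.60, 8.76 and 11.98 in the normalized arm. It was the 1 NDUF gene called lower in the normalized arm (-0.45 ± 0.18 SE, limma adjusted p = 0.0291), and the call was lost with the spread of this gene alone (adjusted p = 0.0783) and without the block (adjusted p = 0.0666). It was also lost when either library at the amounts of titer 8, 4 or 2 was left out (limma adjusted p from 0.0864 to 0.122). NDUFB1 had -0.21 (limma adjusted p = 0.311) and NDUFAF4 -0.13 (limma adjusted p = 0.556). The same genes also differed between the 2 libraries of equal amount and titer. There 10-T1b was 0.470-fold of 10-T1a for NDUFS5, 0.506-fold for NDUFB1 and 0.592-fold for NDUFAF4. Over the 43 NDUF genes, the log2 ratio of 10-T1b to 10-T1a had a median of 0.07, an SD of 0.42 and a range from -1.09 to 0.88, and over all genes tested an SD of 0.44. The part of this difference between 10-T1a and 10-T1b in the matched differences was not tested.

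**Figure D5:**
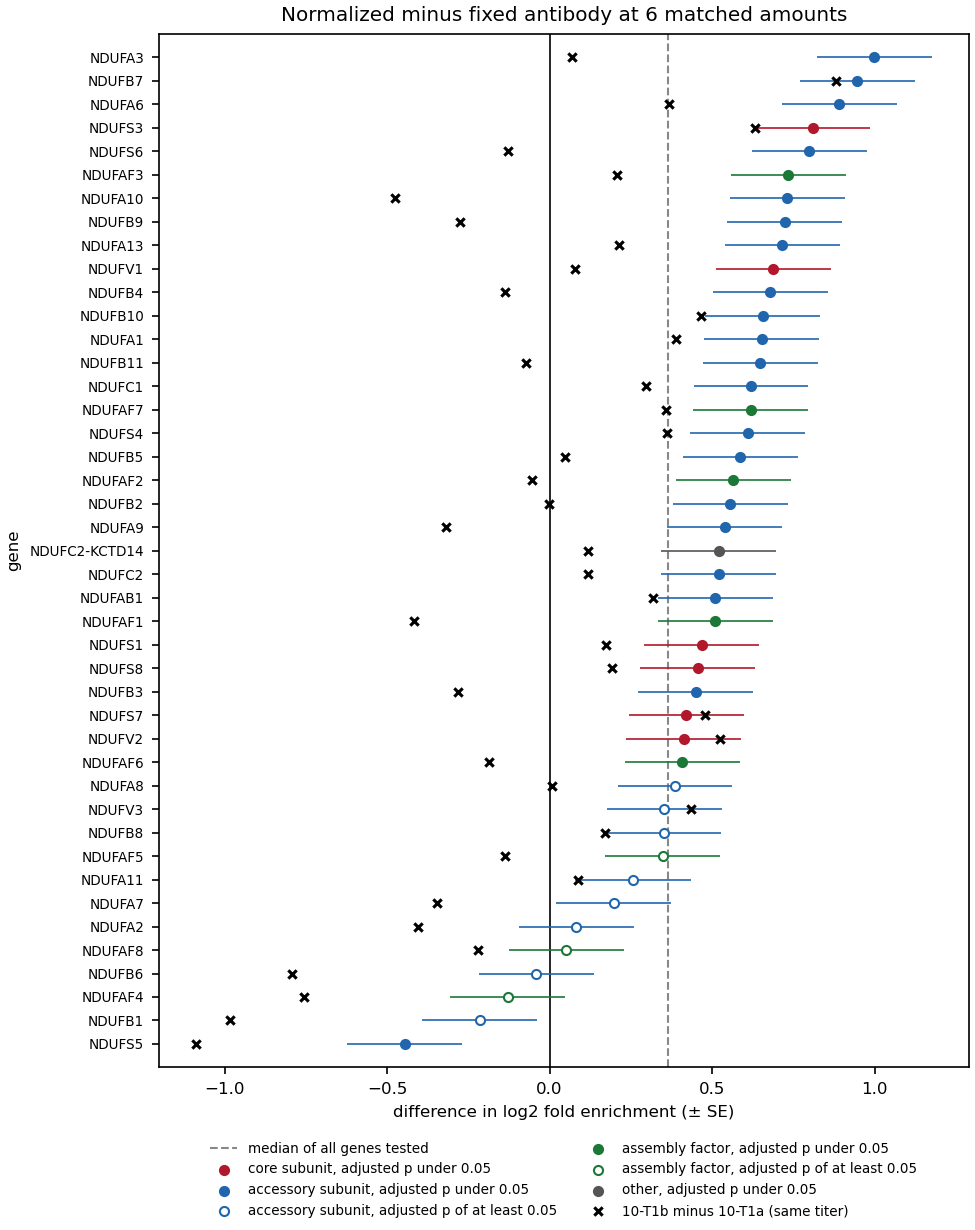
Difference in log2 fold enrichment between the normalized and the fixed arm over 6 matched amounts of chromatin (horizontal axis, point with SE, filled for an adjusted p under 0.05) for each NDUF gene (rows, coloured by role), with crosses for the 10-T1b minus 10-T1a difference at equal titer. NDUFA3 is highest at 1.00 and NDUFS5 lowest at -0.45, and the 4 genes at the bottom, NDUFS5, NDUFB1, NDUFAF4 and NDUFB6, also have the 4 lowest crosses.

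The length covered by peaks around the NDUF genes was compared in the same ways, over the 12830 genes with a peak in at least 1 list. The median covered length of the 43 genes was 1680 bp in 0.31-T32 and 3100 bp in 10-T1a, and 2547 bp in 0.31-T1 and 3152 bp in 10-T1b. With fixed antibody it fell with titer for 30 of 44 NDUF genes and rose for 0 (limma), beside 53.3% of all genes that fell, with a median of -225 bp per doubling for the NDUF genes and -181 bp for all. The count was 15 without 0.31-T32, 19 without 10-T1a, 7 without both 0.31-T32 and 20-T0.5, and 18 with the exact permutation test. The shares of all genes under these settings are not given here, so it is not known whether all genes lost calls alike. NDUFAF3 had the steepest fall (-591 bp ± 89.9 SE per doubling, limma adjusted p = 0.00541), from 7118 bp in 10-T1a to 3611 bp in 0.31-T32. After the mean of all genes was subtracted from each list, 4 NDUF genes fell (NDUFAF3, NDUFC1, NDUFB1 and NDUFAB1, beside 13.8% of all genes) and 3 rose (NDUFB4, NDUFA8 and NDUFA9, beside 23.1%). NDUFB4 had the shallowest slope before centring (-53.8 ± 32.7 bp, limma adjusted p = 0.202).

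At matched amounts the covered length was greater in the normalized arm for 26 of 44 NDUF genes and smaller for 0 (limma), beside 42.2% of all genes that were greater. The median difference was 794 bp, and 504 bp over all genes. NDUFV2 gained most, with 1543, 1758, 1729, 1995, 3149 and 3308 bp in the fixed arm and 4161, 3792, 4567, 4848, 5570 and 5480 bp in the normalized arm at the 6 amounts in rising order. Every normalized value was above every fixed one, and the difference was 2489 bp ± 141 (SE, limma adjusted p = 8.49e-04). NDUFB5 followed with 2380 bp and NDUFV1 with 2242 bp, NDUFC2 standing between them at 2306 bp. NDUFA2 was the 1 gene with a difference below 0 (-186 bp, limma adjusted p = 0.575). Within 1 kb of the TSS the count of NDUF genes with a greater length was 8, and the share of all genes in that window is not given here. After the mean of all genes was subtracted from each list, the length was greater for 12 NDUF genes, beside 15.9% of all genes, and smaller for 3 (NDUFS5, NDUFA2 and NDUFA9, beside 25%).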

How the data were processed

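H3K27ac ChIP-seq peak lists of 14 K562 libraries were analysed, 7 per arm; the 2 inputs have no list of their own. The authors called peaks per library against input with MACS2. The labels name BWA 0.5.9, CASAVA 1.4 and hg38, the contigs and coordinates of the files are those of GRCh38, and the study's text names hg19. The deposited lists give fold enrichment, a ratio of signal to local background, and −log10 p and −log10 q values. A deposited score column, a multiple of the −log10 q made by the authors' caller, was not used. Since deposited peaks include q-values as high as 5.00%, those of at most 1% (−log10 q of at least 2) were kept. Read depth behind a peak was not analysed here, so no counting interval is given.

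Starts came from RefSeq genes, with the strand from the RefSeq promoter table or GENCODE 44 symbols. The strongest peak overlapping 5 kb on either side gave the fold enrichment, which was log2 transformed with no pseudocount, and all peaks gave the covered length. Its percentile is the share of a list's peaks with an equal or lower fold enrichment. limma 3.58.1 in R 4.3.3 was fitted on all genes, with Benjamini-Hochberg adjusted p under 0.05 as the threshold. Fold enrichment was tested for genes with a peak in all 14 lists and covered length for genes with a peak in at least 1. The tests of fold enrichment were checked on simulated data with independent noise and no shift shared by the genes of a library. The check thus does not cover such shifts. With 1 library per condition, p-values measure the scatter around a line or between matched libraries. Genes named were the 3 at each end of each fold enrichment comparison, the exceptions to presence, the core subunits and the assembly factors. Other genes, and those named for covered length, were chosen after their values were seen. 1 gene that the rule takes and 1 marker gene are not reported here. Members and gene lists were chosen with earlier results of these data known. The alternatives were other windows, q-values, start sites and scalings, percentiles, an exact permutation test, no filter, no block and each library left out.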

Additional observations from a re-analysis of the deposited data

Results flagged for a closer look

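Among 89 groups of 7 libraries, 7 held 1 library whose gap to its nearest neighbour, as a share of the range, passed Dixon's critical value, and chance gives about 1 in 20 groups. For the number of NDUF genes with a peak, 0.31-T32 stood apart in the fixed arm with 43, a gap of 1 times the range, since the other 6 lists all had 44. For fold enrichment, NDUFS6 stood apart in 10-T1a (21.6, gap 0.640 of the range of the fixed arm). In the normalized arm NDUFAF7 stood apart in H3K27ac-1.25-T1 (8.89, gap 0.688, below the others), NDUFB6 in H3K27ac-1.25-T1 (11.6, gap 0.585, above), NDUFV1 in 20-T1 (20.1, gap 0.681, above), NDUFB1 in 5-T1 (19.1, gap 0.732, above) and NDUFAF8 in 0.62-T1 (6.20, gap 0.606, below).

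The slope on DNAchrom differed between the arms for 18 NDUF genes (limma interaction term), with the differences furthest below 0 at NDUFS1 (-0.26), NDUFA11 (-0.23) and NDUFAF1 (-0.22), in log2 fold enrichment per doubling of DNAchrom. NDUFA5 had no peak at its RefSeq 5′ end, and at its other listed start it had one in all 14 lists.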

How the results depend on the processing

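The count of 43 NDUF genes with a peak in every list stayed within 1.5 times its value under all 7 other settings. After centring each list on the median of all genes, the counts fell from 42 to 0 for the fixed slope, from 18 to 0 for the slope difference and from 31 to 5 for the matched difference, and with percentiles to 0, 0 and 1, since both remove what all genes share. With the spread of each gene alone (chosen after seeing the data), the matched count was 14, and without the libraries of both extreme titers (also chosen after seeing the data) the fixed slope count was 27. For covered length, the slope count of 30 was 4 after centring on the mean (with 3 that rose), 19 with no filter, 7 without the libraries of both extreme titers and 18 by exact permutation, and the matched count of 26 was 8 within 1 kb and 12 after centring (with 3 smaller). With each library left out in turn, the counts ran from 35 to 43 for the fixed slope, 0 to 0 for the normalized slope, 9 to 19 for the slope difference, 20 to 36 for the matched difference, 15 to 25 for the covered slope and 20 to 26 for the covered matched difference. Where no share of all genes is stated for a setting, its count of NDUF genes is not set against all genes.

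Of 539 single-gene estimates for 17 named genes, 482 kept their direction and side of the threshold, 37 lost and 6 gained the call, and 14 changed sign. Centring and percentiles turned the fixed slope of NDUFA6 to 0.0635 and 0.829 and of NDUFB10 to 0.0700 and 0.979, and the slope difference of NDUFV3 to 0.0712 and 1.18 and of NDUFB10 to 0.112 and 1.82 (percentile points per doubling for the latter of each pair). Centring alone turned the fixed slope of NDUFA3 to 0.0569 and the slope difference of NDUFB7 to 0.0590. The slope difference of NDUFB10 was 0.0052 within 1 kb. With each library left out in turn it ran from -0.0420 to 0.0084, and the normalized slope of NDUFS3 from -0.0595 to 0.0171 (without 20-T1). The estimate was above 0 for NDUFB10 without 10-T1a (0.0033) and without 0.31-T1 (0.0084). The cause of these changes was not tested.

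No paired analysis was possible by replicate number because the labels give none, and the matched differences were instead fitted with the DNA amount as the block. Without that block the counts were 25 for fold enrichment and 19 for covered length, and the shares of all genes are not given here. With 1 library per condition, the scatter between 10-T1a and 10-T1b is the only measure of a repeat, and it includes the difference between the arms. The authors' fold enrichment depends on the depth of each library and input, which was not analysed here. Neighbouring genes within 5 kb can share a peak.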
